A study of Mus musculus with 22 samples.

Results

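The genes described here are the chemokines Ccl2, Ccl6, Ccl7, Ccl8, Ccl9, Ccl11, Ccl19, Cxcl12 and Cxcl14 and the cytokine Il33, 10 of the 16535 genes matched to a probe of the array. Every probe that the array's design assigns to one of them was taken, which gave 13 probes of the 41174 on the array: Ccl7, Ccl19 and Cxcl12 have a pair of probes and the others a single probe. All 13 probes were well above background in enough arrays to be tested, among 19275 probes kept in the series, but some were so in few hearts, as given below for each gene. The hearts came from 22 female C57BL/6 mice, 1 mouse per array. The mice were 5 to 7 weeks old when purchased, with 1 to 3 weeks of acclimatisation after that. Each received a single instillation of 40 µl into the trachea under anaesthesia. Nano-TiO2 mice were given 162 µg of nanosized titanium dioxide in water with 0.9% NaCl and 10% cell-free lung lavage fluid from other mice, and control mice were given that vehicle alone, so all 4 groups shared the anaesthesia, the instillation and the lavage fluid. Hearts were taken at day 1 (5 control and 5 nano-TiO2 mice) or at day 28 (6 control and 6 nano-TiO2 mice). The groups have no uninstilled animals. Day 28 mice had lived longer after the instillation than day 1 mice. Age at instillation is known only within the ranges above, so age and time since instillation cannot be told apart.

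Chemokines are small secreted proteins that guide leukocytes along gradients by binding G protein-coupled receptors on their surface. Ccl2 and Ccl7 draw monocytes, and Ccl8 is encoded near them on chromosome 11. Ccl11 draws eosinophils through Ccr3, and Ccl6 and Ccl9 are mouse chemokines made largely by macrophages and other myeloid cells that bind Ccr1. Ccl19 is a ligand of Ccr7 made by stromal cells of lymphoid organs, Cxcl12 binds Cxcr4 and Ackr3 and is made steadily by stromal and endothelial cells, and Cxcl14 is expressed in many resting tissues. Il33 is held in the nucleus of stromal cells, is released on cell damage and signals through Il1rl1 together with Il1rap; in the heart, fibroblasts are a known source.

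Each value is the log2 ratio of heart RNA (Cy5) to a common reference RNA from 11 mouse cell lines (Cy3), so it sets a heart against the reference and can be compared between hearts for the same probe, not between probes. "Well above background" is the scanner software's call for the Cy5 spot. Between 13477 and 21753 probes per array (32.7% to 52.8%) passed it, and their number and the number of arrays limit the precision. The labels call the tissue heart although their extraction text speaks of lung: of the 8 cardiomyocyte markers, 7 or 8 were well above background on each array, and the lung surfactant genes Sftpc and Sftpb on no array. Some arrays stood apart. The mean of 6 atrial muscle markers lay under -1 relative to its overall mean on 4 arrays (control day 1 replicates 2 and 4, nano-TiO2 day 1 replicate 1 and nano-TiO2 day 28 replicate 1), and 5 arrays had at least 6 liver or at least 3 lung epithelium markers well above background (control day 28 replicates 1, 3, 4 and 5 and nano-TiO2 day 1 replicate 2). Results are given with and without these arrays where that changed a call.

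Promoter sequences from RefSeq (GRCm38.p6) were matched for 7 of the 10 genes (Ccl6, Ccl8, Ccl9, Ccl19, Cxcl12, Cxcl14 and Il33). Those of Ccl6, Ccl9, Ccl8 and Ccl19 are printed here because these 4 genes were higher together in control hearts at day 28 than at day 1, as described below. Each is the 250 bases before the annotated start, read 5′ to 3′ on the gene's strand. Capitals mark matches, on either strand, to TATAAA, the letters of the TATA box, which positions the start of transcription in some promoters. They also mark GGANTTTCC (NF-kB) and TTGCNNAA (C/EBP), where N stands for any base, and in the same way the AP-1 letters TGANTCA, with overlapping matches sharing capitals. Ccl6 lies at chr11:83593088-83593337, minus strand, Ccl9 at chr11:83578637-83578886, minus strand, Ccl8 at chr11:82114935-82115184, plus strand, and Ccl19 at chr4:42756366-42756615, minus strand.
Ccl6: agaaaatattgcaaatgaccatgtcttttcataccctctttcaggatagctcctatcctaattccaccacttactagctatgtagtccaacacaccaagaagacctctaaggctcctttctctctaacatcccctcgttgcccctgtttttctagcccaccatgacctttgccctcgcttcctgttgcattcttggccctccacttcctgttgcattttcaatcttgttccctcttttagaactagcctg
Ccl9: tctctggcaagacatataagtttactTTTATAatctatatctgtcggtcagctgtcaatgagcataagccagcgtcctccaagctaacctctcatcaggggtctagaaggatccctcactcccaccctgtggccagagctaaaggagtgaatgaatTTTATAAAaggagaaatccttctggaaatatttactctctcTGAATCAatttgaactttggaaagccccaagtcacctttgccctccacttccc
Ccl8: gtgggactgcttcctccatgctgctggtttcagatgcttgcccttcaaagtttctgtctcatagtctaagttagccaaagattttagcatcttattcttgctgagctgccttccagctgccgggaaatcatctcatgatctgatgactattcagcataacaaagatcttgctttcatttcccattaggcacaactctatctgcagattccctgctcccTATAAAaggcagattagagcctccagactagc
Ccl19: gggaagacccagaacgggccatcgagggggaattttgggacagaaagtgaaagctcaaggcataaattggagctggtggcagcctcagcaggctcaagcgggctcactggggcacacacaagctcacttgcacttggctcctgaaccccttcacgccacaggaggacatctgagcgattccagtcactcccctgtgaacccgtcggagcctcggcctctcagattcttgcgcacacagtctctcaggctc
The Ccl8 window holds a single TATA match that begins 32 bases before the start. The Ccl9 window holds TATA matches that begin 224, 94 and 92 bases before the start, the last 2 overlapping on opposite strands, and an AP-1 match at 53. The windows of Ccl6, Ccl19, Cxcl12 and Cxcl14 hold no match to these 4 patterns. Il33 has 2 annotated starts: the window of the first holds a TATA match 203 bases before it, and that of the second a TATA match at 29 and a C/EBP match at 85. Among 32851 promoter windows of the same length, 12.4% hold the TATA letters, 1.07% the NF-kB letters, 9.56% the C/EBP letters and 6.75% the AP-1 letters. None of these patterns was found in all 4 printed windows.

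No member passed the test between nano-TiO2 and control hearts at either time. The clear difference was between the vehicle hearts: 7 of the 13 member probes, for Ccl6, Ccl8, Ccl9, Ccl11, Il33 and both probes of Ccl19, were higher at day 28 than at day 1 at an adjusted p under 0.05. In that comparison 1818 of all probes passed (9.43%), 1196 of them higher at day 28 (6.2%) and 622 lower. That split was 981 and 844 by Cy5 alone, 2007 and 2470 by the scanner software's log ratios and 86 and 0 with median centring. The median difference was 0.47 over the 13 member probes, or 0.31 with the 2 probes that no day 1 control showed above background (of Ccl11 and Ccl7) set at their lower bounds, against -0.01 over all probes. The members were chosen with earlier results of these data known, so their count and median beside all probes are a description only. The remaining 6 member probes, for Ccl2, Ccl7, Cxcl12 and Cxcl14, did not pass. Of those that passed, Ccl11 was kept for testing through day 28 hearts alone, so its call is not separate from the filter. Groups did not overlap for 6 member probes (all but Ccl11 of those that passed) and for 6.52% of all probes. The 7 probes kept their direction under every alternative tried. With background parameters fitted on all spots none of them passed (2.65 for Ccl19, adjusted p = 0.0773; 0.99 for Il33, 0.0641; 0.61 for Ccl9, 0.0656; 1.35 for Ccl6, 0.313), and the fit used here, which leaves spots of uneven background out of those parameters, was chosen with that known. None passed either with the slide as a block or without the 5 arrays with liver or lung markers, and with arrays centred on the median only the brighter Ccl19 probe did (2.38; adjusted p = 0.0428). The scanner software's own log ratios moved the size by over 1.5 times, to 0.55 for Ccl6, 1.69 for Ccl19, 1.79 for Il33 and 2.47 for Ccl8. Each array measured RNA of mixed heart tissue, and the arrays differed in atrial, liver and lung markers as given above. Fewer cells of a type and less RNA per cell therefore cannot be told apart.

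**Figure D1:**
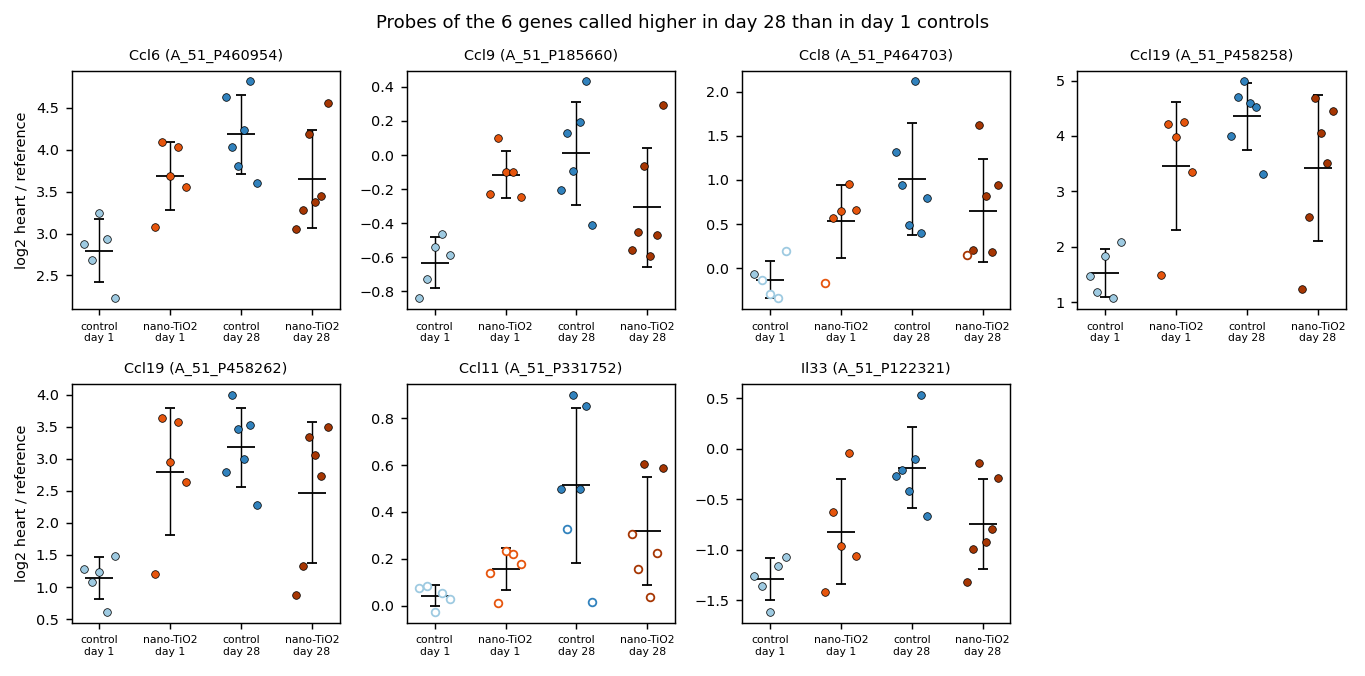
Log2 heart over reference (vertical axis) on each array in the 4 groups for the 7 probes of Ccl6, Ccl9, Ccl8, Ccl19, Ccl11 and Il33; each point is 1 mouse, open points were not well above background in Cy5, and bars give the mean ± SD. Control day 28 hearts lie above control day 1 hearts without overlap for every probe but that of Ccl11, while the nano-TiO2 groups lie between or across them.

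Of the macrophage chemokines, Ccl6 was well above background in every heart. Its log2 ratios were 2.87, 2.69, 3.25, 2.93 and 2.23 in day 1 controls and 3.08, 4.09, 3.68, 4.04 and 3.55 in day 1 nano-TiO2 hearts. At day 28 controls ran from 3.60 to 4.81 (median 4.13) and nano-TiO2 hearts from 3.06 to 4.56 (median 3.41). All 6 day 28 controls lay above all 5 day 1 controls, and 4 of 5 nano-TiO2 hearts did so at day 1, whereas at day 28 the treated hearts overlapped the controls with 4 of 6 below the lowest control. Ccl6 was 1.39 ± 0.26 (SE) higher in log2 in control hearts at day 28 than at day 1, a 2.63-fold difference (adjusted p = 0.00375). The nano-TiO2 difference was 0.89 ± 0.27 at day 1 (adjusted p = 0.482) and -0.53 ± 0.25 at day 28 (adjusted p = 0.688). The genes whose ratios followed Ccl6 most closely over the 22 arrays were C1qb, a complement subunit made by macrophages (Pearson r = 0.95), Retnla, a marker of alternatively activated macrophages (r = 0.93), and Lyz1, a lysozyme (r = 0.92), out of 10348 genes compared; arrays share group, slide and tissue makeup, so r is a description.

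Ccl9, which is next to Ccl6 among the chemokine genes of chromosome 11, ran in the same order of groups at smaller size. Day 1 controls had ratios of -0.84, -0.73, -0.54, -0.46 and -0.59, and day 1 nano-TiO2 hearts -0.23, 0.10, -0.10, -0.10 and -0.25. These did not overlap, and Ccl9 was the only 1 of the 13 member probes of which that is true at day 1, as it is of 1.7% of all probes. Day 28 controls lay between -0.41 and 0.43 (median 0.02) and day 28 nano-TiO2 hearts between -0.59 and 0.29 (median -0.46), where the groups overlapped. The difference between control hearts was 0.64 ± 0.15 (SE; adjusted p = 0.0104), a 1.56-fold higher ratio at day 28. Between nano-TiO2 and control it was 0.52 ± 0.16 at day 1 (adjusted p = 0.482) and -0.32 ± 0.14 at day 28 (adjusted p = 0.686). Tmem107 (r = 0.90), Crip1 (r = 0.87) and Lgi4 (r = 0.86) followed Ccl9 most closely.

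Ccl8 was well above background in 1 of 5 day 1 controls, 4 of 5 day 1 nano-TiO2 hearts, 6 of 6 day 28 controls and 5 of 6 day 28 nano-TiO2 hearts. Day 1 controls had ratios of -0.07, -0.14, -0.30, -0.34 and 0.19, and day 1 nano-TiO2 hearts -0.17, 0.57, 0.65, 0.95 and 0.66. In controls at day 28 the values ran from 0.40 to 2.12 (median 0.87), and in nano-TiO2 hearts from 0.15 to 1.62 (median 0.51). Every day 28 control exceeded every day 1 control, and the nano-TiO2 groups overlapped their controls at both times. Ccl8 was 1.14 ± 0.28 (SE) higher in log2 in day 28 than in day 1 controls (2.21-fold; adjusted p = 0.0128); 4 of the 5 day 1 controls were not well above background, so the size rests on signals near it. Without the 4 arrays low in atrial markers this did not pass (1.07; adjusted p = 0.0680). The nano-TiO2 difference was 0.66 ± 0.29 at day 1 (adjusted p = 0.541) and -0.36 ± 0.26 at day 28 (adjusted p = 0.788). Its closest genes were the MHC class I genes H2-T23 (r = 0.91) and H2-Q7 (r = 0.90), and Crip3 (r = 0.88); H2-T23 and H2-Q7 belong to a family of similar sequences, so their probes may read relatives.

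Ccl2 was well above background on all arrays, through 10 spots, and its group means did not separate. They were -3.33 ± 0.25 (SD, n = 5) in day 1 controls, -3.37 ± 0.11 (SD, n = 5) in day 1 nano-TiO2 hearts, -3.16 ± 0.42 (SD, n = 6) in day 28 controls and -3.27 ± 0.13 (SD, n = 6) in day 28 nano-TiO2 hearts. Control day 28 replicate 4 lay highest at -2.35, with the other 5 of its group between -3.60 and -3.17. The fitted differences were -0.04 ± 0.16 (SE) at day 1, -0.12 ± 0.14 at day 28 and 0.18 ± 0.15 between controls. Irgm1, an interferon response gene (r = 0.83), and Rpl14, a ribosomal protein gene (r = 0.82), were among the genes that followed it most closely, with Spearman rho of 0.53 and 0.66. Without that high day 28 control r fell to 0.47 and 0.62, so these likenesses rest in part on 1 heart.

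Ccl7, whose gene is beside that of Ccl2, was near background. Its first probe was well above background in 1 of 5, 1 of 5, 5 of 6 and 3 of 6 hearts of the day 1 control, day 1 treated, day 28 control and day 28 treated groups, where the mean ratios were -1.70, -1.93, -1.74 and -1.79. The nano-TiO2 difference by this probe was -0.24 ± 0.15 (SE) at day 1 and -0.05 ± 0.14 at day 28. The second was so in 0 of 5, 2 of 5, 4 of 6 and 4 of 6, with mean ratios of -1.32, -1.38, -1.24 and -1.15, and since day 1 controls had no heart above background only its day 28 nano-TiO2 difference is given (0.09 ± 0.11, SE). Neither probe passed the test in any comparison.

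Ccl11 (eotaxin) was dim, and was not well above background in any day 1 heart. At day 28 it was so in 4 of 6 controls, with a group range of 0.02 to 0.90 (median 0.50), and in 2 of 6 nano-TiO2 hearts, with a range of 0.04 to 0.60 (median 0.27). Ccl11 was thus kept for testing through day 28 hearts alone, and its call between controls is not separate from that filter. The reference (Cy3) spot was well above background on 0 of 22 arrays. Over the alternatives the fitted difference between controls ran from 0.13 to 3.11. Means of the measured ratios were 0.04 in day 1 and 0.51 in day 28 controls. It was at least 1.24-fold higher in day 28 controls by the Cy5 signal, set against the higher of its day 1 signal and the dimmest signal called above background (adjusted p = 0.0213 for the fitted ratio). That call was lost without control day 28 replicate 5 (adjusted p = 0.0564) and with Cy5 used alone (adjusted p = 0.125) and without the 4 arrays low in atrial markers (adjusted p = 0.0963), and the adjusted p was 0.775 without the 5 arrays with liver or lung markers. At day 28 nano-TiO2 hearts differed from controls by -0.20 ± 0.12 (SE; adjusted p = 0.747).

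Ccl19, the Ccr7 ligand, had the largest fitted differences of the 13 probes in the 4 comparisons as fitted here, though with the scanner log ratios Il33 and Ccl8 differed more between controls. The highest control difference of Ccl11 under any alternative was 3.11. By the brighter of its probes, day 1 controls had ratios of 1.48, 1.18, 1.83, 1.07 and 2.08, and day 1 nano-TiO2 hearts 1.49, 4.22, 3.98, 4.25 and 3.35. Day 28 controls ran from 3.31 to 4.98 (median 4.56), and day 28 nano-TiO2 hearts from 1.25 to 4.69 (median 3.79). At day 1 the treated group held 4 high hearts and 1 at the control level (replicate 1), and at day 28 it held replicates 1 and 2 below the other 4, which lay within the control range. The gene was 2.82 ± 0.52 (SE) higher in log2 in control hearts at day 28, a 7.08-fold difference (adjusted p = 0.00355). For this probe the reference (Cy3) spot was well above background on only 6 of 22 arrays, against 22 for the other probe. With nano-TiO2 the difference was 1.93 ± 0.54 at day 1 (adjusted p = 0.479) and -0.93 ± 0.50 at day 28 (adjusted p = 0.702). The other probe gave 2.04 ± 0.45 between controls, a 4.11-fold difference (adjusted p = 0.00805), 1.66 ± 0.47 at day 1 and -0.70 ± 0.43 at day 28.

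Genes that followed Ccl19 over the 22 arrays did so closely. Gja5, connexin 40 of atrial muscle and the conduction system, had r = 0.99, Dkk3 r = 0.98 and Fgf12 r = 0.98, and after each group's mean was subtracted r was still 0.97, 0.96 and 0.96. In control hearts Gja5 was 2.42 higher at day 28 than at day 1 (adjusted p = 0.00678), Dkk3 3.45 higher (adjusted p = 0.00611) and Fgf12 3.15 higher (adjusted p = 0.00626). The arrays lowest in Ccl19 among treated hearts, nano-TiO2 day 1 replicate 1 and nano-TiO2 day 28 replicate 1, are those low in atrial markers, at -3.19 and -3.09 relative to the overall mean. They were also low for the adipocyte (-2.12 and -2.08), smooth muscle (-0.99 and -1.17) and fibroblast (-0.69 and -0.67) lists. Ccl19 was low without an atrial mean under -1 in control day 1 replicates 1 (ratio 1.48, atrial mean -0.81), 3 (1.83 and -0.28) and 5 (2.08 and 0.21). It was less low in nano-TiO2 day 28 replicate 2 (2.53 and 0.30). The atrial means of day 28 controls ran from 0.65 to 1.19, above that heart and above every day 1 control (-3.12 to 0.21). Without the 4 arrays low in atrial markers Ccl19 was 2.55 higher in day 28 controls (adjusted p = 0.00306). The day 1 controls that remained were still below every day 28 control in atrial mean, so this does not make the groups alike in atrial markers. The part of atrial and other tissue in the differences of Ccl19 was not tested.

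Il33 was above background in every heart. Day 1 controls had ratios of -1.26, -1.36, -1.62, -1.16 and -1.07, and day 1 nano-TiO2 hearts -1.42, -0.62, -0.96, -0.04 and -1.06. The day 28 controls ran from -0.67 to 0.53 (median -0.24) and the day 28 nano-TiO2 hearts from -1.32 to -0.14 (median -0.86). All day 28 controls exceeded all day 1 controls, and the nano-TiO2 hearts overlapped their controls at both times. The difference between controls was 1.11 ± 0.23 (SE), 2.15-fold (adjusted p = 0.00593), and that of nano-TiO2 was 0.47 ± 0.24 at day 1 (adjusted p = 0.586) and -0.56 ± 0.22 at day 28 (adjusted p = 0.681). Gnai3 (r = 0.96), Ptprf (r = 0.95) and C1ra, a complement protease (r = 0.94), followed Il33 most closely. Its receptor chain Il1rl1 was well above background in 21 of 22 hearts and Il1rap in 2.

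Among the constitutive chemokines, Cxcl12 ran the other way. By its brighter probe, day 1 controls had ratios of 0.72, 0.72, 0.88, 1.37 and 1.18, and day 1 nano-TiO2 hearts 0.76, 0.48, 0.40, 0.20 and 0.57. Controls at day 28 ran from 0.02 to 0.82 (median 0.58) and nano-TiO2 hearts from 0.49 to 1.05 (median 0.91). Thus 4 of 5 treated hearts lay below all controls at day 1, and 4 of 6 lay above all controls at day 28. The nano-TiO2 difference was -0.50 ± 0.15 (SE) at day 1 (adjusted p = 0.482) and 0.30 ± 0.14 at day 28 (adjusted p = 0.688). Between controls it was -0.44 ± 0.14 (adjusted p = 0.0555), and this passed without control day 28 replicate 3 (-0.48; adjusted p = 0.0477) or replicate 6 (-0.50; adjusted p = 0.0298) and with the scanner log ratios (-0.40; adjusted p = 0.0457). The other probe, for another transcript of Cxcl12, was dim, with group means from -1.32 to -1.17, and its differences of -0.07 ± 0.13, 0.09 ± 0.12 and -0.15 ± 0.13 at day 1, at day 28 and between controls did not pass. Zfp975 (r = 0.88), Golga4 (r = 0.88) and the glycolytic enzyme gene Tpi1 (r = 0.87) followed Cxcl12 most closely.

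Cxcl14 had nearly level group means, from 1.31 to 1.42, with all hearts between 0.96 and 1.80. Its differences were -0.02 ± 0.15 (SE) at day 1, -0.02 ± 0.14 at day 28 and -0.09 ± 0.14 between controls. The genes nearest to it were Esrrg (r = 0.81), Helt (r = 0.80) and Ldhd (r = 0.80).

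**Figure D2:**
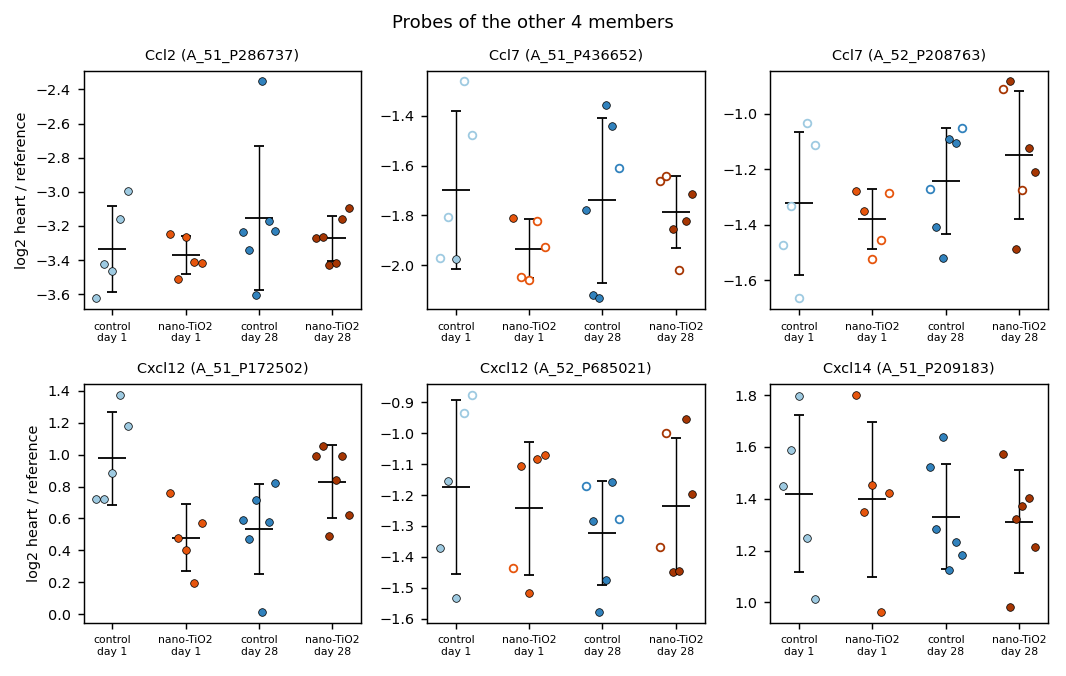
Log2 heart over reference (vertical axis) on each array for the probes of Ccl2, Ccl7, Cxcl12 and Cxcl14, drawn as for the other members (open points not well above background; bars, mean ± SD). The brighter Cxcl12 probe has the widest spread of group means here, from 0.48 to 0.98, and 1 day 28 control stands high for Ccl2.

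No probe of any gene passed between nano-TiO2 and control at day 1 (0% of 19275), where the smallest adjusted p was 0.334. At an unadjusted p under 0.05 there were 1659 probes (8.61%), 6 of them member probes: Ccl6, Ccl8, Ccl9 and both Ccl19 probes higher and Cxcl12 lower in treated hearts. At day 28 again 0% passed, with a smallest adjusted p of 0.681, and 7.2% of probes reached an unadjusted p under 0.05, among them 4 member probes: Ccl6, Ccl9 and Il33 lower and Cxcl12 higher. The change of the nano-TiO2 difference from day 1 to day 28 also passed for no probe (0%, smallest adjusted p = 0.0776), and 14.4% of probes, with 7 member probes, reached an unadjusted p under 0.05. For that change the values were -2.86 ± 0.74 (SE) for Ccl19 (adjusted p = 0.119), -1.43 ± 0.37 for Ccl6 (adjusted p = 0.12), -1.02 ± 0.39 for Ccl8 (adjusted p = 0.233), -0.83 ± 0.21 for Ccl9 (adjusted p = 0.119), -1.03 ± 0.32 for Il33 (adjusted p = 0.152) and 0.79 ± 0.20 for Cxcl12 (adjusted p = 0.119). Without nano-TiO2 day 1 replicate 1, the array low in atrial markers, 319 probes (1.65%) passed and among them both Ccl19 probes (-3.36 and -2.77; adjusted p = 0.0171 and 0.0210), Ccl6 (-1.58; 0.0321), Cxcl12 (0.86; 0.0382) and Ccl9 (-0.86; 0.0486). Without nano-TiO2 day 28 replicate 3, 188 (0.975%) passed and among them Ccl19 (-3.12; 0.0456), Ccl6 (-1.53; 0.0467), Cxcl12 (0.86; 0.0456) and Ccl9 (-0.88; 0.0493). The comparisons share samples: the day 1 comparison and the one between controls share the day 1 controls, and those at day 28 and between controls share the day 28 controls.

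**Figure D3:**
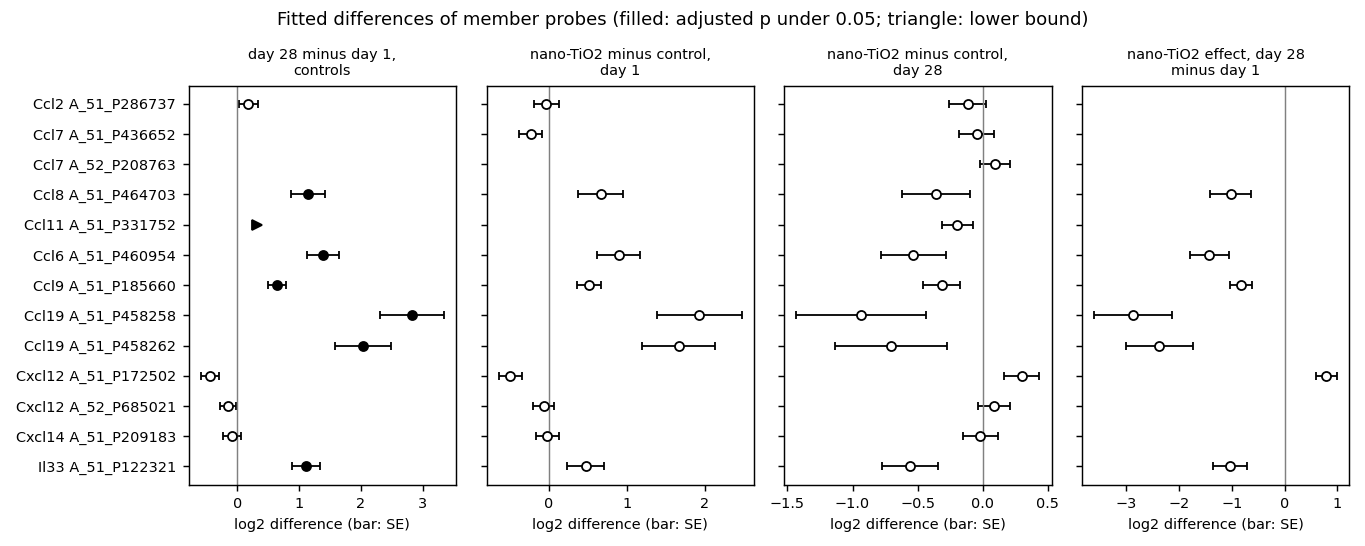
Fitted log2 differences (horizontal axis) with SE for the member probes in the 4 comparisons; filled points have an adjusted p under 0.05, a triangle is a lower bound, and differences that are not given are left blank. Filled points occur only between day 28 and day 1 controls, where 6 probes lie from 0.64 to 2.82 and Ccl11 is drawn at its bound of at least 1.24-fold.

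The slides and scan days were set beside these values, since arrays of a group were spread over 9 slides and 3 scan days. Within slides that held both groups, 1 array of each, the control difference was positive on 3 of 3 slides for Ccl6 (0.56 to 2.59), Ccl9 (0.45 to 1.02), Ccl8 (0.21 to 1.45), the brighter Ccl19 probe (2.44 to 3.15), the other Ccl19 probe (1.71 to 2.23) and Il33 (1.09 to 1.61), and negative on 3 of 3 for Cxcl12 (-0.60 to -0.13). Except for Cxcl12, these control groups did not overlap, so the sign on each slide was fixed in advance and only the sizes are informative. With nano-TiO2 at day 1, Ccl6 (0.20 to 1.40), Ccl9 (0.34 to 0.82) and the brighter Ccl19 probe (0.02 to 3.18) were higher on 4 of 4 slides, the other Ccl19 probe (-0.07 to 2.96), Ccl8 and Il33 on 3 of 4, and Cxcl12 on 1 of 4. The Ccl9 groups did not overlap at day 1, so its sign was fixed in the same way. At day 28, the brighter Ccl19 probe was lower in treated hearts on 5 of 6 slides, the other Ccl19 probe, Ccl6, Ccl8, Ccl9 and Il33 on 4 of 6, and Cxcl12 was higher on 4 of 6. With the slide as a block in the fit, no probe passed between controls (3335 or 17.3% at an unadjusted p under 0.05, 7 of them member probes), and the values were 2.45 for Ccl19 (adjusted p = 0.0973), 1.44 for Ccl6 (0.0971), 1.22 for Il33 (0.0923), 0.60 for Ccl9 (0.159) and 0.92 for Ccl8 (0.184), with an adjusted p of 0.0923 for Ccl11. With the scan day as a block, 7 member probes passed, all higher, beside 2218 (11.5%) of all probes.

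**Figure D4:**
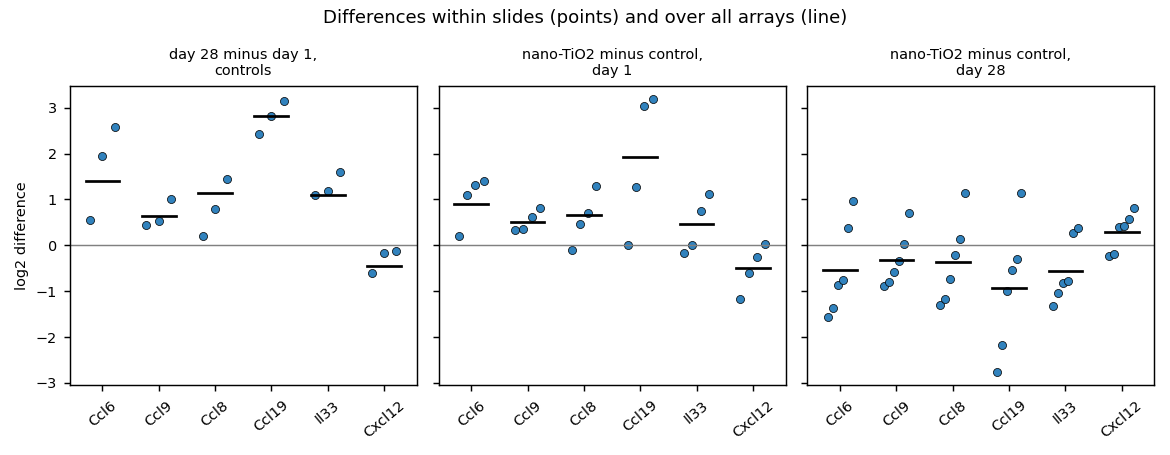
Log2 differences computed within single slides (points) for 6 members and the fitted difference over all arrays (line) in 3 comparisons. For day 28 against day 1 controls every slide gives a positive value for Ccl6, Ccl9, Ccl8, Ccl19 and Il33 and a negative value for Cxcl12, whereas at day 28 the slides fall on both sides of 0. The positive signs between controls follow from groups that do not overlap.

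Several members varied with Ccl19 from heart to heart within groups. With each group's mean subtracted, Ccl19 correlated over the 22 hearts with Il33 (Pearson r = 0.70, adjusted permutation p = 0.00333; Spearman rho = 0.64, 0.0142), Ccl6 (r = 0.60, 0.0122; rho = 0.49, 0.038), Ccl8 (r = 0.57, 0.0154; rho = 0.56, 0.0177) and Ccl9 (r = 0.54, 0.0185; rho = 0.56, 0.0177), and inversely with Cxcl12 (r = -0.53, 0.0185; rho = -0.57, 0.0177). These are two-sided permutation tests adjusted over 9 relations. The values were shuffled freely over all 22 hearts after the group means were subtracted. Arrays shared slides, and the spread of Ccl19 differed between groups (SD 0.43 in day 1 controls, 1.32 in day 28 nano-TiO2 hearts). The p are therefore approximate and may be too small. For Ccl11 (0.35), Cxcl14 (-0.31), Ccl7 (-0.32) and Ccl2 (-0.08) r did not pass. Leaving out the 2 hearts farthest from the median in Ccl19 gave r of 0.57, 0.45, 0.44, 0.56 and -0.50 for Il33, Ccl6, Ccl8, Ccl9 and Cxcl12. By scan day, with 6, 8 and 8 hearts, r with Il33 was 0.75, 0.98 and 0.75, with Ccl6 0.27, 0.81 and 0.58, with Ccl8 0.25, 0.79 and 0.55, with Ccl9 0.15, 0.67 and 0.65, and with Cxcl12 -0.01, -0.64 and -0.80. The first scan day thus had lower sizes of r for these 4 genes. Genes outside the members reached higher r with Ccl19 in the same way, such as Gja5 (0.97), Dkk3 (0.96) and Fgf12 (0.96). The share of all genes with an r of the members' size was not counted, so these r are not shown to be particular to the members.

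Markers of several cell types moved with the same groups. Of the 11 macrophage markers kept, all 11 were higher in day 28 than in day 1 controls and 5 passed, among them Lyve1 (1.31 ± 0.25, SE), Mrc1 (0.82 ± 0.20) and C1qb (0.68 ± 0.14), with array means from -0.54 to -0.14 in day 1 and -0.04 to 0.53 in day 28 controls. All 8 mesothelial markers passed and were higher, such as Msln and Upk3b (array means -1.09 to -0.18 and 0.22 to 1.05). Of the smooth muscle markers, 5 of 6 passed (-1.18 to -0.69 and 0.38 to 1.06), of the adipocyte markers 6 of 8 (-2.15 to -1.03 and -0.06 to 2.62; Lep was on no array above background), of the atrial markers 2 of 6 (-3.12 to 0.21 and 0.65 to 1.19), and of the fibroblast markers 3 of 10 (-0.61 to -0.05 and 0.07 to 0.64). Of the monocyte markers all 4 kept were higher and 1, Lyz2, passed (-0.48 to -0.18 and -0.25 to 0.73), of the eosinophil and mast cell markers all 3 kept were higher and 1, the mast cell protease Mcpt4, passed (-0.69 to -0.10 and -0.09 to 0.50; Epx, Prg2, Siglecf and Ms4a2 were on no array above background), and of the lymph node stroma markers both kept were higher and 1, Cxcl13, passed (-0.64 to -0.39 and -0.10 to 1.23; Madcam1 and Pdpn never above background). Endothelium (1 of 8), T cell (1 of 3) and thymocyte (1 of 2) lists had 1 marker that passed, higher, and the neutrophil (2 kept), B cell (3), liver (5) and lung epithelium (2) lists had none. Cardiomyocyte markers ran slightly the other way, with 7 of 8 lower, 3 of which passed (-0.08 to 0.31 and -0.35 to -0.0032). The array means of the adipocyte list had medians of -2.11 in control and 0.65 in nano-TiO2 hearts at day 1 and of 1.30 and -0.26 at day 28, above the controls in treated hearts at day 1 and below them at day 28, as were the means of Ccl6, Ccl8, Ccl9, Ccl19 and Il33. This order is not particular to the adipocyte list. Medians of the macrophage, monocyte, smooth muscle, mesothelium, fibroblast and atrial lists, among others, ran alike. Those of the cardiomyocyte, endothelium, liver and lung epithelium lists did not. Of the 7 liver markers with a probe, up to 7 were above background in a day 28 control; without the 5 arrays with liver or lung markers, which leaves 2 day 28 controls, only 2 probes and no member passed between controls, and the difference was 2.48 for Ccl19 (adjusted p = 0.269), 1.02 for Ccl6 (0.284) and 0.86 for Il33 (0.305). The part of these cell types and tissues in the members' differences was not tested.

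**Figure D5:**
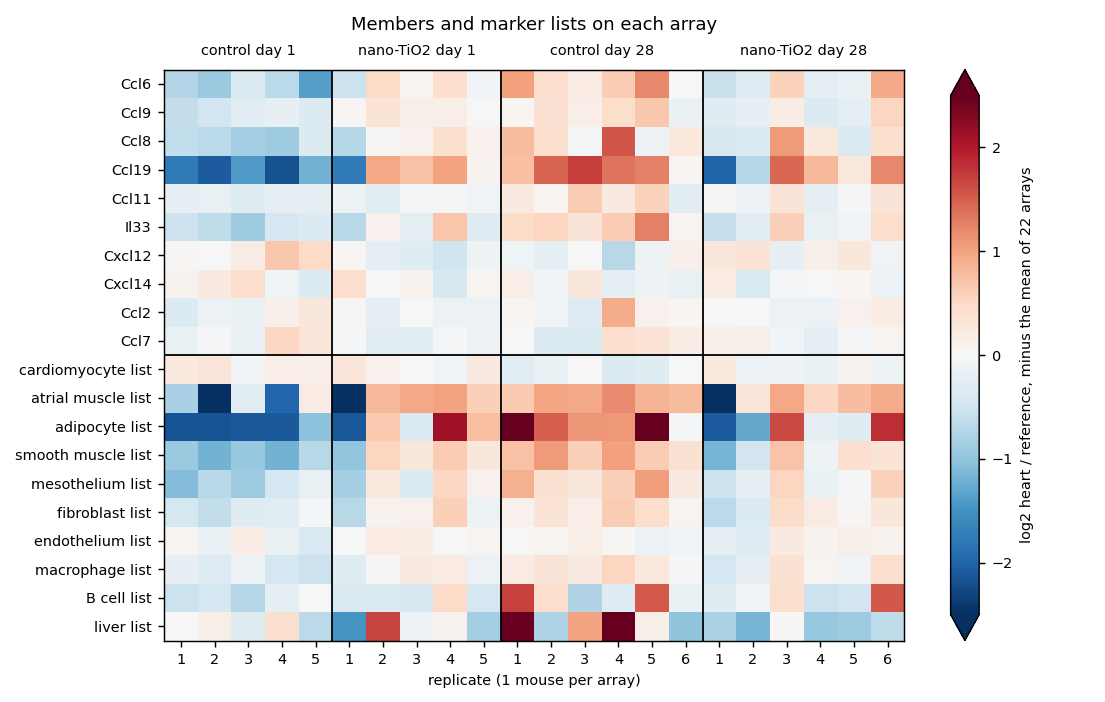
Log2 heart over reference minus the mean of the 22 arrays (colour, limited at ±2.5) for the lead probe of each member and the mean of 10 marker lists (rows) on every array (columns, by group). Day 1 controls are low for Ccl19, Ccl6, Ccl8, Ccl9 and Il33 and for the adipocyte, smooth muscle and mesothelium lists; nano-TiO2 day 1 replicate 1 and nano-TiO2 day 28 replicate 1 are low for Ccl19 and for the atrial list.

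The receptors of these ligands were mostly near background. Of 25 chemokine and Il33 receptor genes, all with a probe, 12 were kept. Ccr1 (Ccl6, Ccl9), Ccr3 (Ccl11), Ccr7 (Ccl19) and Ccr8 were above background on 0 of 22 arrays, Ccr2 (Ccl2, Ccl7) on 8, Cxcr4 (Cxcl12) on 11, and Ackr3, a scavenger of Cxcl12, on 22. Between controls 1 of the 12 passed, Cxcr3, the receptor of interferon-induced chemokines, 0.39 ± 0.11 (SE) higher at day 28 (adjusted p = 0.0233), against a median of 0.10 over the 12. Cxcr3 was well above background in 1 of 5 day 1 controls, 1 of 5 day 1 nano-TiO2 hearts, 5 of 6 day 28 controls and 2 of 6 day 28 nano-TiO2 hearts. It met the filter of 5 arrays only with the day 28 controls counted, so its call is not separate from that filter. In nano-TiO2 hearts none of the 12 passed at either time; the smallest p included those of Ackr2 (0.32 ± 0.16) and Cxcr3 (0.22 ± 0.11) at day 1, and to Cxcr3 (-0.30 ± 0.10), Cxcr4 (0.17 ± 0.10) and Ackr2 (-0.20 ± 0.15) at day 28.

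Of 30 other chemokine genes, 27 had a probe and 14 were kept. Between controls 5 passed, all higher at day 28: Pf4 (platelet factor 4, 0.73 ± 0.18, SE; adjusted p = 0.0127), Ccl24 (an eosinophil attractant, 0.57 ± 0.14; 0.0150), Cx3cl1 (fractalkine, 0.34 ± 0.09; 0.0200), Cxcl16 (0.48 ± 0.15; 0.0445) and Cxcl13, a B cell attractant, which was above background in no day 1 control and was at least 2.91-fold higher by Cy5 signal (adjusted p = 0.0443; mean ratio -0.02 against 1.92). The median difference of the 14 was 0.34, against -0.01 over all probes. This list too was chosen with earlier results of these data known, so the median is a description only. Of the 6 B cell markers, Cd79a, Pax5 and Blk were never above background, and the array means of the 3 kept ran from -0.70 to -0.0060 in day 1 and from -0.75 to 1.71 in day 28 controls; their part in the value of Cxcl13 was not tested. None of the 14 passed with nano-TiO2; at day 1 the smallest p were those of Pf4 (0.57 ± 0.18), Cxcl16 (0.39 ± 0.16) and Ccl21a (0.23 ± 0.11), and at day 28 of Cxcl16 (-0.32 ± 0.14), Ccl24 (-0.27 ± 0.14) and Cx3cl1 (0.16 ± 0.09).

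Of 20 other cytokine genes, 19 had a probe and 6 were kept. Il6 and Tnf were above background on 0 of 22 arrays and Il1b on 2. Il18, an inflammasome product, passed between controls, at least 1.23-fold higher at day 28 by Cy5 signal (adjusted p = 0.0142; mean ratios -0.45 and -0.09), and was above background in no day 1 control. No cytokine passed with nano-TiO2: the smallest p at day 1 were those of Il18 (0.16 ± 0.09, SE), Il34 (-0.16 ± 0.13) and Il15 (0.14 ± 0.13), and at day 28 those of Il18 (-0.13 ± 0.09), Tgfb1 (0.05 ± 0.06) and Il15 (0.05 ± 0.12).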

How the data were processed

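Heart RNA of 22 mice was measured on Agilent 2-colour arrays with RNA of integrity number 7 and above, per the labels. The deposited scanner files hold median spot and local background intensities, neither subtracted nor normalized, and the scanner software's log10 ratios (Cy5 over Cy3; Agilent Feature Extraction 10.7.3.1, per the file headers). Version 9.5.3.1 is named in the submitters' processing notes. A series matrix deposited by the authors holds log2 values whose method is not given in the sources used here; its values correlated at r of 0.992 to 0.999 with loess ratios made without background subtraction, its column medians ran from -0.036 to -0.021, and what was centred is unknown.

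Log2 ratios were made from the intensities in R 4.3.3 with limma 3.58.1 and data.table (version 1.17.8; figures: Python 3.11.15, matplotlib 3.10.9): normexp background correction (offset 50), fitted without spots of uneven background, a choice made with results of a fit on all spots known; loess within arrays, control and outlier spots at weight 0; outlier spots left out (0.299%); spots of a probe averaged. No Cy5 spot was saturated. A probe was kept where Cy5 was well above background on 5 or more of the 22 arrays. Probes were named through RefSeq accessions, 23374 of them to 16535 genes. Each probe was fitted with a mean for each of 4 groups (lmFit, eBayes), with Benjamini-Hochberg adjustment over all kept probes, two-sided, threshold 0.05; the steps were tested on simulated data. Replicates are separate mice. A list gene is given by its kept probe of highest mean Cy5 signal. A gene of the lists is named if it passed, or if it is among the 3 smallest p of its list at day 1 or at day 28; genes like a member are the 3 of highest r; a few genes these rules name are not reported here. Promoters are RefSeq's. Members and lists were chosen with earlier results of these data known. Alternatives covered background, normalization, Cy5 alone, filters, probe choice, eBayes options, array weights, only the groups compared, slide or scan day as a block and each array left out; 2 more, chosen after seeing the data, left out the arrays that stood apart. Dyes were not swapped.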

Additional observations from a re-analysis of the deposited data

Results flagged for a closer look

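In 52 combinations of a member probe and a group, 1 heart lay far from the rest of its group, where a rate of 1 in 20, which chance gives, comes to 2.6. Ccl2 in control day 28 replicate 4 had a log2 ratio of -2.35 against -3.60 to -3.17 in the other 5 hearts, a gap of 0.657 of the group's range. The probe was well above background there. Its cause was not tested.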

How the results depend on the processing

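Counts of probes past the threshold (main 0 at day 1, 0 at day 28, 0 for the change of the nano-TiO2 difference and 1818 between controls, 7 of these members) depended on the processing, and the cause was not tested. Between controls 80 passed with background parameters fitted on all spots (72 higher, 8 lower; 0 members), 86 with median centring (1 member), 4477 with the scanner log ratios, 3249 with array weights, 0 with the slide as a block (0 members), 693 without the 4 arrays low in atrial markers and 2 without the 5 arrays with liver or lung markers (0 members); the last leaves fewer samples. The scanner log ratios gave 5 at day 1 and 46 for the change, array weights 4 and 86, and leaving out the 4 arrays 13 and 14. Leaving out 1 mouse at a time gave 1034 to 2343 between controls (members 6 to 8), 0 to 12 at day 1 and 0 to 319 for the change. The low count between controls came without control day 28 replicate 4; it was 1063 and 1169 without control day 1 replicates 2 and 1, and 1194 without control day 28 replicate 5. The 12 at day 1 and the 319 came without nano-TiO2 day 1 replicate 1, and the change passed for 188, 32 and 10 probes without nano-TiO2 day 28 replicate 3, control day 28 replicate 6 and nano-TiO2 day 28 replicate 6. At day 28 the count was 0 under every alternative. Median centring moved the median of all probes to 0.15 at day 1, -0.24 for the change and 0.12 between controls.

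Small differences that missed the threshold changed sign. At day 1, Ccl2 was 0.043 with the scanner log ratios, 0.25 with median centring, 0.0023 with Cy5 alone and 0.046 with array weights (-0.11 to 0.048 leaving out 1 mouse). The dim Cxcl12 probe was 0.41, 0.088, 0.058 and 0.066 in that order and 0.066 without the 4 arrays (-0.16 to 0.0053), and Cxcl14 was 0.17 with all spots, 0.096 with median centring and 0.0083 with the slide block (-0.12 to 0.087). At day 28, Ccl2 was 0.16 with all spots and 0.013 without the 5 arrays (-0.21 to 0.044), Ccl7 0.023 and 0.077 (-0.13 to 0.030) and Ccl11 0.15 without the 5 arrays. The second Ccl7 probe was -0.066 with the scanner log ratios. The dim Cxcl12 probe was -0.25 with these, -0.019 with median centring and -0.0013 with Cy5 alone. Cxcl14 was 0.071 with the scanner log ratios, 0.0072 in the series matrix, 0.067 with Cy5 alone, 0.026 with array weights and 0.078 without the 5 arrays (-0.072 to 0.046). Between controls, the dim Cxcl12 probe was 0.45 with the scanner log ratios, 0.022 with median centring and 0.025 with Cy5 alone, and Cxcl14 was 0.049 with median centring and 0.00084 with the slide block (-0.19 to 0.0067). Signals near background limit Ccl7, Ccl8, Ccl11 and that Cxcl12 probe.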
